A study of Mus musculus with 6 samples.

Results

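The 6 genes described here are the Dynlt1 and Tmem181 copies of mouse chromosome 17: Dynlt1a, Dynlt1b, Dynlt1c, Dynlt1f, Tmem181a and Tmem181b-ps. They were taken by gene name from a table of 54232 genes. The study named Dynlt1b, Tmem181a and Tmem181b near peaks of a histone acetylation mark that were lower in UtyGT than in WT hearts. It reported no evidence of differential expression of these genes in heart RNA. Dynlt1a, Dynlt1c and Dynlt1f were added as neighbouring copies. In nuclear RNA of cardiomyocytes from UtyGT and WT mice, none of the copies was called as changed. Both Tmem181 copies had at least 334 reads in every library, whereas the 4 Dynlt1 copies had between 4 and 55 reads each.

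Cardiomyocyte nuclei came from frozen left ventricles of adult male mice, stained for PCM1, a protein that surrounds cardiomyocyte nuclei, and sorted by flow cytometry at 150000 nuclei per library. The 3 UtyGT libraries came from mice with a gene trap in an intron of Uty, the Y-linked gene of a histone demethylase-like protein, made in 1 embryonic stem cell clone of 129P2 origin (XS0378) and crossed to C57BL/6J. The 3 WT libraries came from C57BL/6.Y<129P2> mice, which carry an untrapped 129P2 Y chromosome on the same C57BL/6 background. Each library bears the number 11, 15 or 31, and each number occurs once per strain. The procedure was repeated on different days in each strain, but the labels do not tie a number to a day or say how many animals gave a library, so that a p-value here measures variation from library to library, part of which may be technical.

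Dynlt1, first described as Tctex-1, is a light chain of cytoplasmic dynein, the motor that carries cargo along microtubules towards their minus ends. It binds as a dimer to the intermediate chain of the motor and also occurs outside it. Tmem181 is a membrane protein with several transmembrane segments that belongs to the GOST family, and human TMEM181 is needed in cultured cells for the action of a bacterial cytolethal distending toxin. In the mouse both genes lie in the t complex region of chromosome 17.

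The 6 copies spanned 399041 bases, at chr17:6256860-6655900 of GRCm38. Tmem181a lay at chr17:6256860-6308314 on the plus strand, and Dynlt1a followed on the minus strand at chr17:6306340-6317500. The 3′ ends of the pair overlapped by 1975 bases, of which 580 were exonic in both genes, or 13.6% of the exon bases of Dynlt1a. Dynlt1b lay at chr17:6430112-6436296 on the plus strand. Tmem181b-ps, annotated as a transcribed unprocessed pseudogene, began 2227 bases further on at chr17:6438524-6467022 on the minus strand. Dynlt1c lay at chr17:6601671-6609774 on the plus strand and Dynlt1f at chr17:6646602-6655900 on the minus strand. Between these last copies sat a further Tmem181 pseudogene, Tmem181c-ps, which had at most 4 reads in a library. A processed Dynlt1 pseudogene on chromosome 6, Dynlt1-ps1, had at most 3 reads. Gm29719, a non-coding gene between Dynlt1a and Dynlt1b that the study also named, has a pair of rows in the table, both at 0 assigned reads in all 6 libraries, which allows up to 3 assigned reads per library. Of the 100-base stretches of these rows, 93.8% and 100% also occur under another gene ID, which can be the other row of the pair. The rows have 870 stretches in common with each other. The value of 0 therefore does not limit the transcripts themselves.

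The coding sequences are shown as a part of the transcripts in which reads can match several copies. The exons of the Dynlt1 copies, from 771 bases in Dynlt1b to 4267 in Dynlt1a, also hold non-coding sequence. Dynlt1a, Dynlt1c and Dynlt1f have the same coding sequence of 342 bases, and Dynlt1b differs from it by 1 substitution, C21A, counted from 1 at the first base of the start codon with the base of Dynlt1a first. The change leaves all 113 residues of the protein alike. The first 300 bases are given for Dynlt1c (coding exons within chr17:6601810-6607571, plus strand) and the first 60 bases for Dynlt1b (coding exons within chr17:6430212-6435967, plus strand), with position 21 in capitals.
Dynlt1c: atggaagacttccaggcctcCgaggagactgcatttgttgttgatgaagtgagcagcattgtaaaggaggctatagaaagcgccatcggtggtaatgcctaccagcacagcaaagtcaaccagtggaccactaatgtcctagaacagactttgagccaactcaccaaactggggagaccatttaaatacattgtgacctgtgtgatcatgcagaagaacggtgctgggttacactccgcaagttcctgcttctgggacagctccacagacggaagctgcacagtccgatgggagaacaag
Dynlt1b: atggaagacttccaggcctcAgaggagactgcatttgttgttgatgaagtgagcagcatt
Over 1413 aligned bases, Tmem181b-ps had 7 mismatches and 1 gap to the coding sequence of Tmem181a and was 99.5% identical. Tmem181c-ps had 9 mismatches and 2 gaps over 1338 bases and was 99.3% identical. Gaps are not counted in these percentages, and their effect on the reading frame was not tested. The stretch of Tmem181a coding bases 148 to 207 is shown beside the matching bases 17 to 76 of the Tmem181b-ps transcript, with the 2 mismatches, T153C and T207C in Tmem181a numbering, in capitals. The sequences were spliced from GENCODE transcripts on GRCm38.
Tmem181a: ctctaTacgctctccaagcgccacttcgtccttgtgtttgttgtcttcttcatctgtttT
Tmem181b-ps: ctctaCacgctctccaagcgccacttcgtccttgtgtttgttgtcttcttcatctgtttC

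Every possible stretch of 100 bases, the length of 1 read, was then looked up, on either strand, among all annotated mouse transcripts. Of the stretches of Dynlt1b, 82.0% occurred identically in another gene. The share was 80.7% for Dynlt1c, 78.0% for Dynlt1f and 54.7% for Dynlt1a. For Dynlt1a it includes 384 stretches found in Tmem181a, whose exons overlap those of Dynlt1a on the opposite strand. They were 8.65% of the stretches of Dynlt1a and 5.70% of those of Tmem181a. How many of them lie in the overlap itself was not counted. Dynlt1c and Dynlt1f were the closest pair: 2698 stretches were common to both, 69.9% of those of Dynlt1c and 72.8% of those of Dynlt1f. Of the stretches of Dynlt1b, 67.1% were shared with Dynlt1a, 67.1% with Dynlt1c and 52.2% with Dynlt1f. Among annotated transcripts the Tmem181 copies had more sequence of their own. The share was 24.3% for Tmem181a and 33.3% for Tmem181b-ps, with 1268 stretches in common between them. Introns and unannotated sequence were not searched, so a stretch found in no other annotated gene may still occur elsewhere in the genome. How reads that match several copies were counted is not stated in the sources used here. A value below is therefore the number of reads assigned to a copy, and how many of them arose from another copy was not tested.

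**Figure D1:**
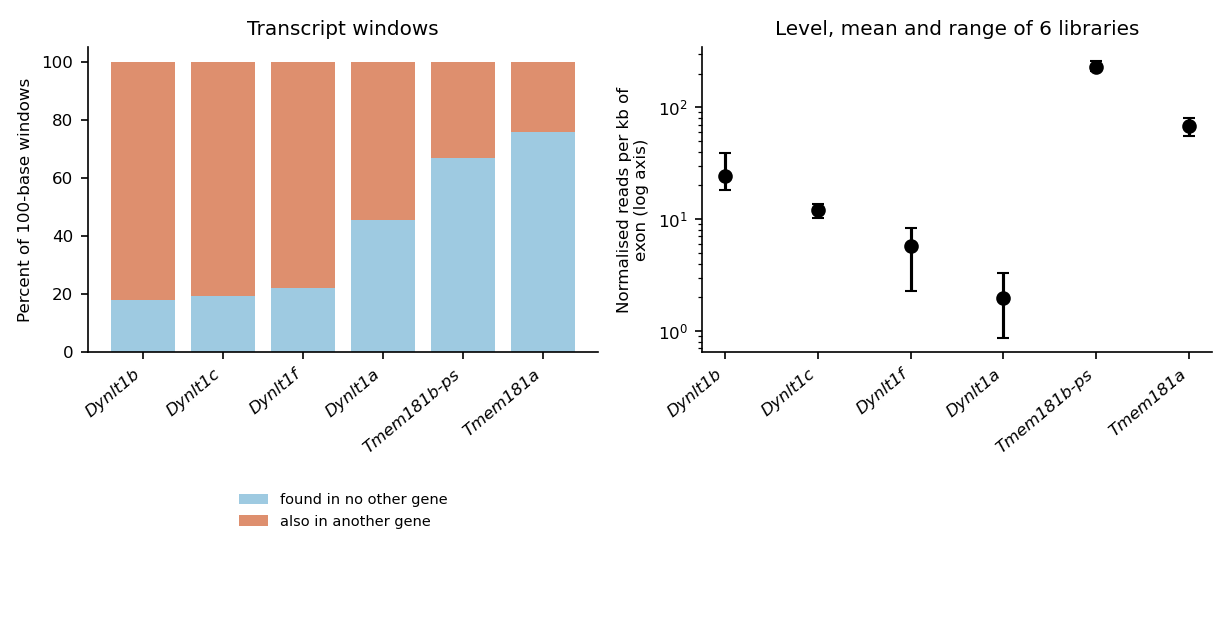
Left, percent of the 100-base stretches of each copy's transcripts that occur in no other annotated gene (blue) or also in another gene (orange). Right, normalised reads per kb of exon on a log axis, as the mean (point) and range (bar) of all 6 libraries. The 4 Dynlt1 copies shared 54.7 to 82.0% of their stretches and stood below both Tmem181 copies in level.

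Libraries held between 18204752 and 23252887 reads in genes, and values are given as normalised reads, the reads of a gene divided by a size factor of its library. 1 read was worth between 0.921 and 1.08 normalised reads. The 6 copies together took between 0.00652% and 0.00803% of the gene reads of UtyGT libraries and between 0.00686% and 0.00735% of those of WT libraries. Uty itself checked the labels: it had 22.1, 14.1 and 19.9 normalised reads in UtyGT libraries 11, 15 and 31, against 1212, 1332 and 1314 in WT libraries. Ddx3y, its neighbour on the Y chromosome, had 230, 257 and 87.8 in UtyGT libraries, against 1334, 1143 and 1211 in WT libraries. Summed cardiomyocyte markers (6 genes) ranged from 1899385 to 2187654 normalised reads in UtyGT libraries and from 1925704 to 2337604 in WT libraries. The markers of fibroblasts (6 genes) summed to between 822 and 2344 in UtyGT and between 741 and 3674 in WT, those of endothelium (6 genes) to between 761 and 822 in UtyGT and between 631 and 1425 in WT, and those of mural cells (6 genes) to between 714 and 768 in UtyGT and between 648 and 1246 in WT. All 6 leukocyte markers also had reads, with sums of 7604, 620 and 12958 in UtyGT libraries 11, 15 and 31 and 17903, 1499 and 13925 in WT libraries, so that the libraries numbered 15 were low in both strains. Of 6 testis germ cell markers, chosen because Tctex-1 is abundant in testis, 5 were at 0 in every library and Ddx4 alone had reads. Between the strains, the log2 difference of UtyGT from WT was below 0 for all 6 leukocyte markers (median -0.83) and all 6 fibroblast markers (median -0.47). It was below 0 for 5 of 6 endothelial, 4 of 6 mural and 2 of 6 cardiomyocyte markers, and above 0 for 48.6% of all genes tested. Of these markers 0 were called. In bulk nuclei, fewer cells of a type and less RNA per cell cannot be told apart.

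Levels are compared between copies per length, first per kb of exon. Tmem181b-ps was highest, at a mean of 229 normalised reads per kb (range 209 to 260 over 6 libraries), above Tmem181a, the protein-coding copy, at 68.1 (55.1 to 80.1). Dynlt1b followed at 24.5 (18.2 to 39.0), then Dynlt1c at 12.1 (10.3 to 13.7), Dynlt1f at 5.75 (2.29 to 8.29) and Dynlt1a at 1.97 (0.864 to 3.29). Only the last pair, Dynlt1f and Dynlt1a, had ranges that overlapped. The place of Dynlt1b depends on its annotated exons of 771 bases, against 3777 for Dynlt1c, 3627 for Dynlt1f and 4267 for Dynlt1a. In normalised reads not divided by length, Dynlt1c had the highest mean of the Dynlt1 copies. It was 45.6, against 20.9 for Dynlt1f, 18.9 for Dynlt1b and 8.41 for Dynlt1a. Levels were also set against stretches found in no other annotated gene in place of exon length. The order of Dynlt1b and Tmem181a then turned round, at means of 156 and 87.5 normalised reads per 1000 such stretches. Only 121 stretches of Dynlt1b are its own, against 5101 of Tmem181a. All assigned reads were divided in this way, so the value of Dynlt1b is too high if reads of shared stretches were counted, which is not known. Tmem181b-ps stayed highest on that scale, at 336, and Dynlt1a lowest, at 4.18.

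The place of the copies among their partners was read on the same per-length scale. Dync1h1, the heavy chain that carries the motor activity of dynein, had a mean of 722 normalised reads per kb, and Dync1i2, the intermediate chain to which Dynlt1 binds, had 71.8. Dynlt3, the other Tctex-type light chain of this motor, had 71.0, with a range of 59.6 to 83.7 that lay above those of all 4 Dynlt1 copies on this scale, which takes no account of shared stretches. Dynll1, a light chain of the LC8 type, had 25.1 (14.7 to 37.6), which overlapped Dynlt1b, and its relative Dynll2 had 292. The further Tctex-type genes Tcte3, Tctex1d1 and Tctex1d4 averaged 1.14, 0.174 and 1.37 normalised reads and were below the minimum for a test. Among the relatives of Tmem181, Gpr108 had 169, Tmem87a 147, Tmem87b 135, Gpr107 128, Gpr180 98.3 and Wls, the carrier of Wnt proteins, 92.8 normalised reads per kb, and Tmem145 was at 0 in every library. Tmem181b-ps, a pseudogene by annotation, stood above all of these relatives, and its range did not overlap theirs.

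**Figure D2:**
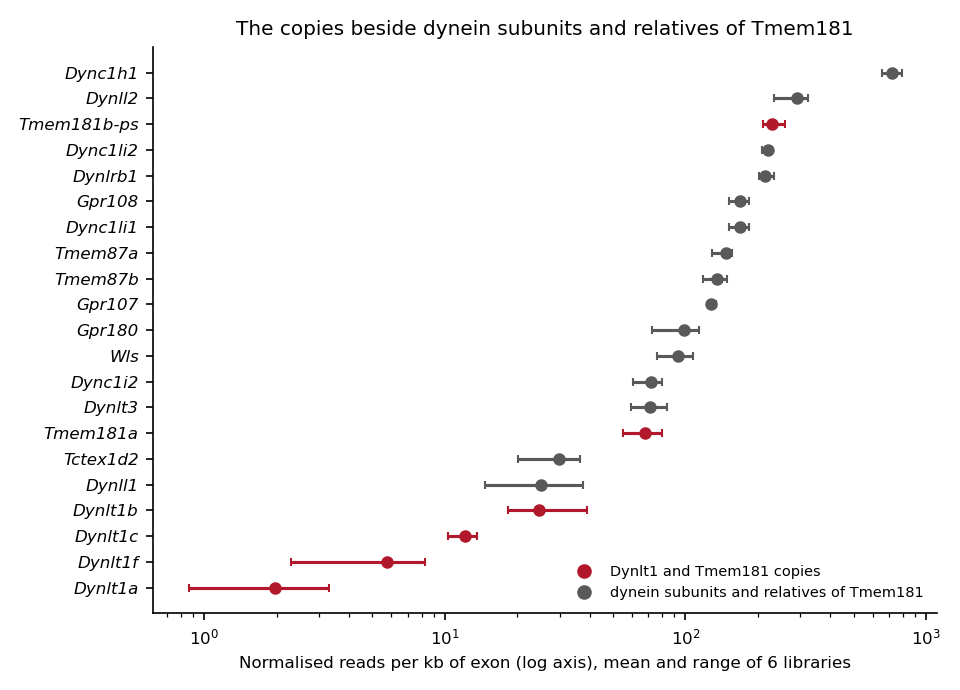
Normalised reads per kb of exon (log axis) for the copies (red) and for dynein subunits and relatives of Tmem181 (grey), as the mean (point) and range (bar) of 6 libraries. Genes with a library at 0 are not drawn. Per kb of exon, with shared stretches not taken into account, Dynlt3 at 71.0 lay above all 4 Dynlt1 copies, and Tmem181b-ps at 229 above all relatives of Tmem181.

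For Tmem181a, UtyGT libraries 11, 15 and 31 had 412, 524 and 507 normalised reads, against 449, 423 and 361 in WT libraries of the same numbers. UtyGT 15 and 31 lay above all WT libraries, UtyGT 11 lay below WT 11 and 15, and the groups overlapped. The means were 481 ± 60.2 in UtyGT and 411 ± 45.3 in WT (SD, n = 3 each). The fitted difference was 0.23 ± 0.13 on the log2 scale (SE), a ratio of 1.17 with a 95% interval of 0.938 to 1.46 (limma adjusted p = 0.9996).

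For Tmem181b-ps, UtyGT libraries had 875, 1089 and 896 normalised reads, against 933, 1075 and 886 in WT libraries. The library numbered 15 was the highest of its strain in each case and the ranges nearly coincided. The means were 953 ± 118 in UtyGT and 965 ± 98.6 in WT (SD, n = 3 each). The log2 difference was -0.02 ± 0.12 (SE), with a 95% interval of 0.812 to 1.20 for the ratio (limma adjusted p = 0.9996). Among the copies it was the most precisely measured, with between 820 and 1167 reads a library. The ratio of Tmem181b-ps to Tmem181a was 2.12, 2.08 and 1.77 in UtyGT libraries and 2.08, 2.54 and 2.46 in WT libraries, again overlapping, and these ratios are of reads not divided by length.

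For Dynlt1c, UtyGT libraries had 38.9, 48.8 and 45.0 normalised reads, against 51.6, 46.1 and 43.2 in WT libraries. UtyGT 11 was the lowest of the 6 libraries and WT 11 the highest. The means were 44.2 ± 5.0 in UtyGT and 47.0 ± 4.25 in WT (SD, n = 3 each), and the log2 difference was -0.09 ± 0.21 (SE, limma adjusted p = 0.9996). Its 95% interval for the ratio ran from 0.668 to 1.33.

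For Dynlt1f, UtyGT libraries had 18.9, 30.1 and 23.0 normalised reads, against 17.8, 8.29 and 27.0 in WT libraries. The spread came mainly from the libraries numbered 15, with the highest value in UtyGT and the lowest in WT. UtyGT 15 had 32 reads of this gene, with an exact Poisson 95% interval of 21.9 to 45.2, and WT 15 had 9 reads, with one of 4.12 to 17.1. Such intervals cover counting error only. The means were 24.0 ± 5.63 in UtyGT and 17.7 ± 9.36 in WT (SD, n = 3 each), and the log2 difference was 0.53 ± 0.46 (SE, limma adjusted p = 0.9996). It was the largest estimate among the copies and among the least precise, with a 95% interval of 0.675 to 3.10 for the ratio. In the deposited table of 4 libraries, which leaves out both libraries numbered 15, the log2 difference was -0.06.

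For Dynlt1b, UtyGT libraries had 14.7, 30.1 and 18.8 normalised reads, against 14.1, 18.4 and 17.3 in WT libraries. UtyGT was higher at each of the 3 numbers, as were 8.51% of all genes tested, and the groups still overlapped. The means were 21.2 ± 7.94 in UtyGT and 16.6 ± 2.26 in WT (SD, n = 3 each). The log2 difference was 0.28 ± 0.36 (SE, limma adjusted p = 0.9996), and UtyGT 15 decided its size: without that library it was 0.01.

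For Dynlt1a, UtyGT libraries had 4.21, 4.70 and 12.5 normalised reads, against 11.3, 3.69 and 14.0 in WT libraries. These were between 4 and 13 reads, and the mean of 8.41 normalised reads was below the minimum of 10 for the test. Its values were low in both libraries numbered 15, where the leukocyte markers were also low, and in UtyGT 11; the part of leukocyte RNA in them was not tested. The difference of mean log2 values was -0.37, and a fit without the minimum gave a 95% interval of -1.84 to 1.10 on the log2 scale (limma adjusted p = 0.9998).

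**Figure D3:**
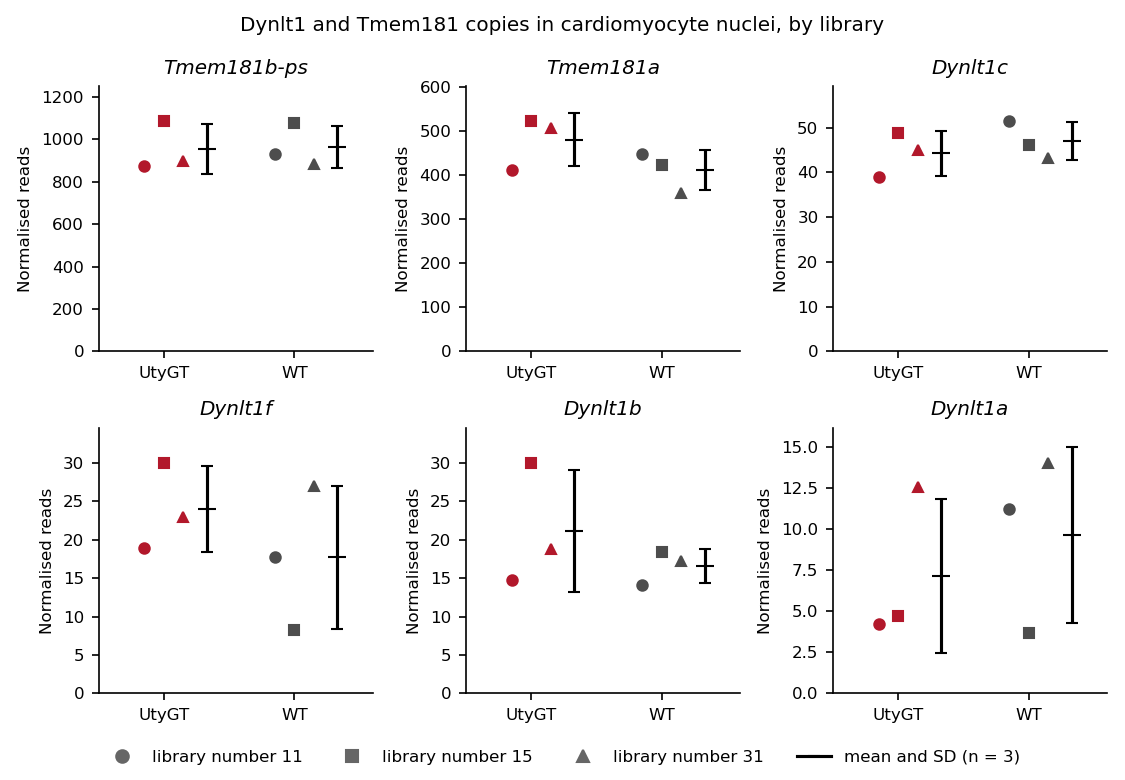
Normalised reads of each copy in every library, UtyGT (red) left of WT (grey), with the library number as symbol and the mean and SD of 3 libraries as a black bar. Axes start at 0. The groups overlap in all 6 panels, and the largest log2 difference within 1 number is that of Dynlt1f in libraries 15, with 30.1 in UtyGT and 8.29 in WT.

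Because the Dynlt1 copies share much of their sequence, their reads were also added. The sum was 76.8, 114 and 99.3 normalised reads in UtyGT libraries 11, 15 and 31, against 94.7, 76.5 and 102 in WT libraries. Its means of 96.6 ± 18.6 in UtyGT and 90.9 ± 12.96 in WT (SD, n = 3 each) differed by less than the spread within either strain. Of the summed reads, Dynlt1c took between 43.0% and 50.7% in UtyGT libraries and between 42.6% and 60.2% in WT libraries. Dynlt1f took between 23.2% and 26.4% in UtyGT and between 10.8% and 26.6% in WT. Dynlt1b took between 18.9% and 26.4% in UtyGT and between 14.9% and 24.1% in WT, and Dynlt1a between 4.13% and 12.6% in UtyGT and between 4.82% and 13.8% in WT. A library held between 73 and 121 such reads, and the share of Dynlt1c in UtyGT 15, for example, had an exact binomial 95% interval of 34.0 to 52.3%. The shares of each copy overlapped between the strains. The summed Tmem181 copies had between 1288 and 1613 normalised reads in UtyGT libraries and between 1247 and 1498 in WT libraries.

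Of the 6 copies, 5 could be tested and 0 were called at an adjusted p under 0.05, where the background was 0.00617% of 16202 genes, that is 1 gene, Uty, which was lower in UtyGT. The fit did not call Ddx3y (limma adjusted p = 0.9996), though its means were 192 normalised reads in UtyGT and 1229 in WT and its groups did not overlap. A count of 0 from this fit thus does not by itself mean that genes were unchanged. With the library number as a block, 2 genes were called, with Ddx3y added at a limma adjusted p of 0.0291. DESeq2 without the block called Ddx3y at an adjusted p of 2.7e-14. At an unadjusted p under 0.05, 0 of the 5 copies passed, against 195 genes or 1.2% of those tested. edgeR and DESeq2 on the whole reads recovered from the values called 0 of the 6 copies as well, with 0 at an unadjusted p under 0.05. The groups did not overlap for 0 of the copies, against 5.42% of all genes tested. The 5 tested copies had a median log2 difference of 0.23, with 3 above 0 and 2 below, against a median of -0.01 over all genes tested. With 3 libraries a strain, the intervals still hold ratios of up to 1.46 for Tmem181a and 3.10 for Dynlt1f.

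**Figure D4:**
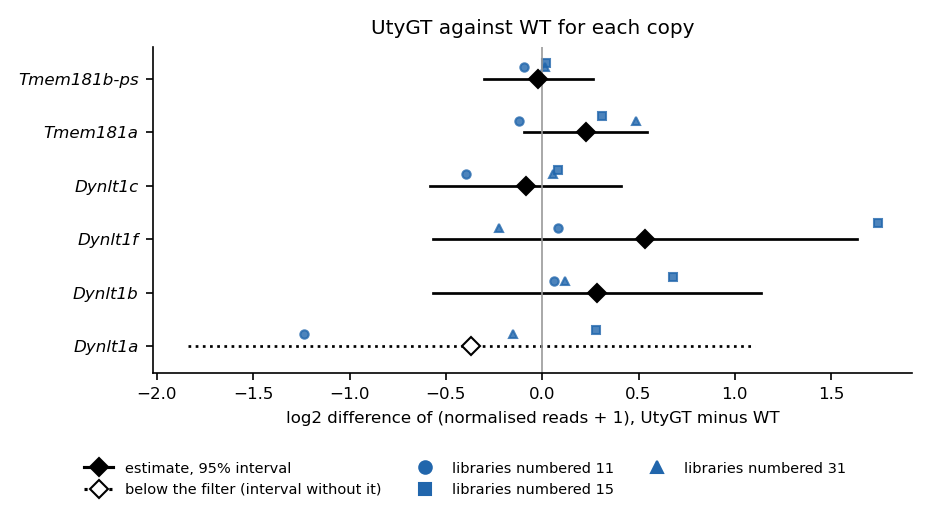
Difference between UtyGT and WT of log2(normalised reads + 1) for each copy, with the 95% interval of the fit (black) and the difference within each library number (blue). Dynlt1a, below the minimum for a test, has an open symbol and a dotted interval from a fit without that minimum. All 6 intervals include 0.

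Library numbers were compared as well. An F test of the number, with strain as covariate, called 0 of the 5 copies against 4.79% of all genes tested (776 genes). The smallest adjusted p was 0.785, for Tmem181b-ps. The same test called all 6 leukocyte markers and none of the 6 cardiomyocyte markers.

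Correlations between the copies over the libraries had both signs. Over 6 libraries, Pearson's r of log2(normalised reads + 1) between copies ranged from -0.61 (Dynlt1a and Tmem181b-ps) to 0.70 (Dynlt1b and Tmem181b-ps), with a median of 0.29 over 15 pairs and 10 pairs above 0. Dynlt1c and Dynlt1f, which shared the most sequence, had an r of -0.02. Of the adjacent pairs, Dynlt1b and Tmem181b-ps, 2227 bases apart, had the highest r of the 15, and Dynlt1a and Tmem181a, which overlap, had -0.15. These values are descriptions, since all points share the same 6 libraries and their size factors.

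Among the 16202 genes tested, the closest to each copy by the same measure were as follows. Dynlt1b was followed most closely by Zfp617, Dcaf11 and Sdsl, at r of 0.99, 0.99 and 0.98. For Dynlt1c they were Alg5, Actr1a, the actin-related protein that forms the filament of dynactin, and Plekhj1, at 0.99, 0.98 and 0.98. For Dynlt1f they were Ddx51, Scrib and Gm43031, at 0.99, 0.99 and 0.98. For Tmem181a they were Crebzf, Dcp2 and Map6, each at 0.98. For Tmem181b-ps they were Metap1d, Dtymk and Casp2, at 0.996, 0.99 and 0.99. These are descriptions too, over 6 points and picked from all genes tested, and none of the named genes is another copy.

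The genes that work with Dynlt1 were compared between the strains in the same fit. Of 10 listed further subunits of dynein 1, 8 were tested and 0 called, with a median log2 difference of -0.03. Dync1h1 differed by 0.06 ± 0.09, Dync1i2 by -0.05 ± 0.12, Dynll1 by -0.09 ± 0.41 and Dynlt3 by -0.09 ± 0.17 (log2, SE). The smallest p values of this list were those of Dynll2, at 0.15 ± 0.13, and Dync1li1, a light intermediate chain, at -0.07 ± 0.10. The 5 subunits of dynein 2, the motor of cilia, were all tested and 0 were called, with a median of 0.13. Its heavy chain Dync2h1 had 563, 516 and 529 normalised reads in UtyGT libraries against 470, 418 and 507 in WT libraries, a difference of 0.21 ± 0.10 (log2, SE). Wdr34, its intermediate chain, differed by 0.18 ± 0.18, and Tctex1d2, its Tctex-type light chain, by -0.18 ± 0.25.

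Of the 12 subunits of dynactin, the complex that joins dynein to its cargo, 12 were tested and 0 called, with a median of -0.04 and 10 below 0. Dctn1, which binds the intermediate chain, differed by -0.02 ± 0.10, Dctn5 by -0.18 ± 0.11, Capza1 by -0.12 ± 0.16, Dctn4 by 0.03 ± 0.09 and Capzb by 0.00 ± 0.10 (log2, SE). Of 14 regulators and adaptors of dynein, 13 were tested and 0 called, with a median of 0.01. Pafah1b1, the Lis1 protein that holds dynein in an active state, differed by 0.07 ± 0.07 and Bicdl1 by 0.13 ± 0.22. Mapk8ip3 differed by -0.04 ± 0.10 and Ninl by -0.07 ± 0.27. Of 7 relatives of Tmem181, 6 were tested and 0 called, all with estimates above 0 and a median of 0.05. Tmem87a had 1144, 1174 and 1151 normalised reads in UtyGT libraries against 968, 1112 and 1084 in WT libraries, a difference of 0.14 ± 0.08, and Gpr180 differed by 0.20 ± 0.17 (log2, SE). In each of these lists limma, edgeR and DESeq2 called 0 genes, and 0 had an unadjusted p under 0.05. The groups did not overlap for 0 of the 8 tested subunits of dynein 1, 1 of 5 of dynein 2 (Dync2h1), 1 of 12 of dynactin (Actr10), 1 of 13 regulators and adaptors (Pafah1b1) and 1 of 6 relatives of Tmem181 (Tmem87a), against 5.42% of all genes tested.

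The genes around the copies gave the setting on the chromosome. Within 1 Mb of the outermost copies the table held 55 other rows, of which 39 had a read in some library and 18 could be tested. Of these, limma, edgeR and DESeq2 called 0, and 0 had an unadjusted p under 0.05. Their median log2 difference was 0.01, with 10 above 0 and 8 below, and the groups did not overlap for 2 of the 18, Ldhal6b and Rsph3b, against 5.42% of all genes tested. Between the copies themselves no other gene reached the minimum for a test. To the left, the nearest tested gene was Tulp4, a Tubby-like protein gene that ends 5732 bases from Tmem181a, with means of 1551 normalised reads in UtyGT and 1549 in WT and a log2 difference of 0.01 ± 0.09 (SE). Beyond it, n-R5s26 differed by -0.14 ± 0.89, Gm5812 by 0.21 ± 0.44, Gtf2h5, a subunit of the transcription factor TFIIH, by 0.01 ± 0.13, and Serac1 by -0.01 ± 0.11. To the right, Ezr, which encodes the membrane linker ezrin, began 82141 bases from Dynlt1f and had means of 525 in UtyGT and 498 in WT, a log2 difference of 0.08 ± 0.08 (SE). Gm2885 differed by -0.41 ± 0.29, Rsph3b, a radial spoke protein gene, by 0.15 ± 0.11, Gm49719 by -0.03 ± 0.47 and Tagap1 by 0.06 ± 0.20.

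**Figure D5:**
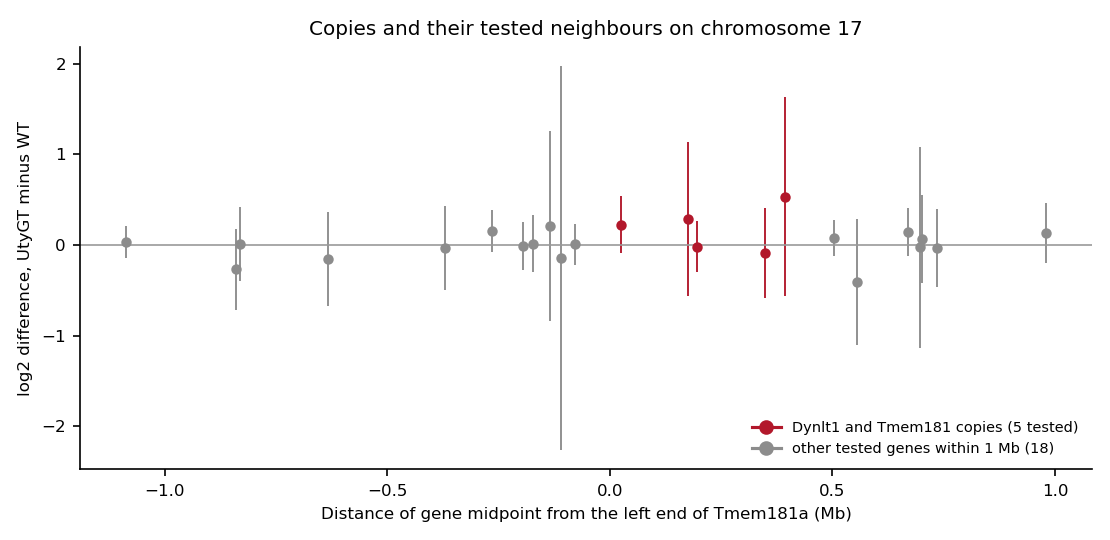
Log2 difference between UtyGT and WT, with its 95% interval, for the 5 tested copies (red) and the 18 other tested genes within 1 Mb (grey), by distance of the gene's midpoint from the left end of Tmem181a in Mb. All intervals of the copies and of these neighbours include 0.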

How the data were processed

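Nuclear RNA of PCM1-sorted cardiomyocyte nuclei was sequenced as paired ends of 100 bases from stranded total RNA libraries, in 3 UtyGT and 3 WT samples. Per the labels, the authors called bases with CASAVA 1.4, aligned to GRCm38 with STAR 2.5.1b and assigned reads to genes of Ensembl annotation 98 with featureCounts 1.6.0. The strand setting is not given in the sources used here, so reads of Dynlt1a and Tmem181a, which overlap on opposite strands, may not be separated. The values the authors deposited are a signal in normalised reads, gene reads divided by a DESeq2 (1.22.2) size factor per library, with no division by length. A table of 4 libraries, normalised on its own, was used as an alternative.

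All values above 0 were whole reads after division by the smallest step (100%, within 0.0001 reads). Genes with a mean of at least 10 normalised reads (16202 of 54232) were tested on log2(normalised reads + 1) with limma 3.58.1 in R 4.3.3, two-sided, with Benjamini-Hochberg adjustment over all of them and a threshold of 0.05. This scale understates changes of low genes. edgeR 4.0.16 and DESeq2 1.42.0 were run on the recovered reads as alternatives, and the statistics were tested on simulated data. Deviations from the strain means correlated at 0.25, 0.80 and 0.41 between libraries of equal number 11, 15 and 31, all positive. UtyGT 31 with WT 11 (0.73) and UtyGT 11 with WT 31 (0.41) also correlated, so that only number 15 stood apart. The reported fit between the strains was unpaired, with no term for the number. The number entered only as the replicate block of the alternatives and in the F test. Replicate pairs within a strain were not duplicates of one another (chi-square over degrees of freedom at least 17.0). Lengths, positions and stretches of 100 bases came from GENCODE M21, which gave a position for 99.7% of the gene IDs.

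The copies and gene lists were chosen with earlier results of these data known. Genes were named by rule: all 6 copies and other rows of these names, Gm29719, Uty and Ddx3y, a core of the dynein motor, up to 2 genes with the smallest p in each direction of each list, the 5 nearest tested neighbours on either side, and the 3 genes closest in pattern to each tested copy. Ldhal6b, the overlap between groups of Actr10 and all genes given only for their level per length were added after their values were seen.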

Additional observations from a re-analysis of the deposited data

How the results depend on the processing

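Of the 5 tested copies, 0 were called under any alternative in which they could be tested: other pseudocounts (0.5 and 5), no minimum, a minimum mean of 50, TMM scaling, edgeR, DESeq2, the replicate block, the table of 4 libraries and leaving out each library. Over these, the log2 difference of Tmem181a (19 alternatives) ran from 0.13 to 0.33 and that of Dynlt1b (18) from 0.01 to 0.50, all above 0. Without UtyGT 11, Tmem181a had an unadjusted limma p of 0.0454 and an adjusted p of 0.9998. Dynlt1f (18) ran from -0.065 to 0.89, the value of -0.065 being that of the table of 4 libraries. Dynlt1a, run under 4 alternatives and called under 0, was -0.37 in limma without a minimum and -0.69 in the table of 4 libraries. It was -0.42 in edgeR and -0.43 in DESeq2 without a minimum, alternatives added after seeing the data. At the minimum of 50, only the Tmem181 copies could be tested.

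The number of genes called between the strains was 1 in the fit reported. It was 2 with the replicate block and with DESeq2, 4 with DESeq2 and the replicate block, and between 1 and 2 on leaving out single libraries, the value of 2 without UtyGT 31. The replicate block changed no call of a copy. The number called between library numbers was 776, against 478 with a minimum of 50 and between 369 (without WT 15) and 1244 (without UtyGT 11) on leaving out single libraries, with 462 without UtyGT 15. Counting depth limits the Dynlt1 copies, at 4 to 55 reads each.

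Some estimates changed sign, none of them called before or after. On leaving out single libraries, log2 differences ran from -0.16 to 0.00088 for Dynlt1c, -0.12 to 0.061 for Tmem181b-ps, -0.24 to 0.0051 for Dynlt3, -0.36 to 0.042 for Tctex1d2, -0.035 to 0.11 for Dctn4, -0.084 to 0.070 for Capzb, -0.21 to 0.013 for Capza1, -0.035 to 0.26 for Bicdl1, -0.090 to 0.068 for Mapk8ip3, -0.33 to 0.14 for Ninl, -0.12 to 0.055 for Dync1i2, -0.45 to 0.23 for Dynll1 and -0.10 to 0.060 for Dctn1. Among the neighbours they ran from -0.098 to 0.055 for Serac1, -0.088 to 0.11 for Gtf2h5, -0.073 to 0.061 for Tulp4, -0.13 to 0.43 for Gm5812, -0.24 to 0.90 for n-R5s26, -0.43 to 0.21 for Gm49719 and -0.057 to 0.24 for Tagap1. In the table of 4 libraries they were 0.025 for Dynlt3, -0.073 for Capzb, -0.017 for Bicdl1, -0.054 for Tulp4 and -0.23 for Gm5812. edgeR gave -0.0025 for Capzb, 0.44 for n-R5s26 and 0.068 for Gm49719, and DESeq2 gave -0.0027 for Capzb, -0.00022 for Tulp4, 0.43 for n-R5s26 and 0.066 for Gm49719. edgeR with the replicate block gave 0.25 for n-R5s26 and 0.0081 for Gm49719, and a pseudocount of 5 gave 0.066 for n-R5s26. The cause of these changes of sign was not tested.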
